A study of Mus musculus with 18 samples.

Results

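Long domains of dimethylated lysine 27 on histone H3 (H3K27me2) that lay inside domains of dimethylated lysine 36 (H3K36me2), and outside trimethylated lysine 27 (H3K27me3), are described here in mouse embryonic stem cells. From the authors' list of H3K27me2 peaks replicated between libraries, peaks on chromosomes 1 to 19 were kept when they were 5000 bp or longer, had 90% or more of their bases in replicated H3K36me2 peaks and had 0 bp in replicated H3K27me3 peaks. There were 8171 such peaks, called members below, of 43264 in the list and of 38627 that were long enough and on an autosome. The untreated H3K27me2, H3K36me2 and H3K27me3 libraries chose them, so the levels of those 3 marks in untreated cells are given as a description with no test.

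E14 cells, a mouse embryonic stem cell line, were grown in 2i/LIF medium, which holds inhibitors of MEK and GSK3 and keeps the cells undifferentiated, with arginine and lysine of normal or heavier isotopes. The 18 chromatin immunoprecipitation (ChIP-seq) libraries formed 9 groups of 2 replicates. Untreated cells, without a spike-in, gave 10 libraries, for the 3 methylation states of H3K27 and for H3K36me2 and H3K36me3. The other 8 were quantitative libraries for H3K27me3 or H3K36me2 from cells that received 10 µM EPZ-6438, an inhibitor of EZH2, or an equal volume of its solvent DMSO, for 7 days, with Drosophila S2 chromatin added at 0.05% as a spike-in. The labels do not say whether replicates were separate cultures, so p-values measure only the spread between these libraries. Genotype is not given beyond the name of the line, and all libraries come from this 1 line.

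EZH2 is the catalytic subunit of the Polycomb repressive complex PRC2, which adds methyl groups to H3K27 one after another, from H3K27me1 to H3K27me3. H3K27me3 marks silent developmental genes, H3K27me2 covers wide stretches of chromatin in embryonic stem cells, and H3K27me1 is known for its presence in transcribed gene bodies. H3K36me2 is placed by NSD enzymes and H3K36me3 by SETD2 behind elongating RNA polymerase, and H3K36 methylation on the same histone tail hinders PRC2.

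Promoters inside members were read from RefSeq to show what kind of gene starts these domains contain, since promoters rich in the dinucleotide CG are the usual landing sites of PRC2. The promoter here is the 250 bases before a protein-coding start, printed 5′ to 3′ on the gene's strand, with CG in capitals. The genes of the first 4 were named for the values of their members, and Itpk1 was added after its CG count was seen because it was the highest among promoters inside members. All come from RefSeq (GRCm38.p6), the build (mm10) that matches the chromosome lengths of the deposited tracks.
4931408C20Rik: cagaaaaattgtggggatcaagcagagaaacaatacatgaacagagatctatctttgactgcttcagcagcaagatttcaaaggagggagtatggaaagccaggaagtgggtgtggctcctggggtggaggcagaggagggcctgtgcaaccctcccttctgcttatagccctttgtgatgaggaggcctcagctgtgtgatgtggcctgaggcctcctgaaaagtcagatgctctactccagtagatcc
Bricd5: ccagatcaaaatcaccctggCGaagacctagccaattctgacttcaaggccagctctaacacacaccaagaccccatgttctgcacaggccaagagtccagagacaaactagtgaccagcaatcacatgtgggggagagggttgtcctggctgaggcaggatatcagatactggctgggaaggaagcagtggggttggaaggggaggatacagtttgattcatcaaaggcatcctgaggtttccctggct
Mad1l1: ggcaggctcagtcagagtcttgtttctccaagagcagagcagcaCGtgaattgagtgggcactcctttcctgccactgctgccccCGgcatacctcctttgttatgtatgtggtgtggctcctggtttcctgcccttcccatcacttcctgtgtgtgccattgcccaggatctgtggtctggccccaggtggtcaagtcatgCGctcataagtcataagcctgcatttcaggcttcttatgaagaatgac
Ddx58: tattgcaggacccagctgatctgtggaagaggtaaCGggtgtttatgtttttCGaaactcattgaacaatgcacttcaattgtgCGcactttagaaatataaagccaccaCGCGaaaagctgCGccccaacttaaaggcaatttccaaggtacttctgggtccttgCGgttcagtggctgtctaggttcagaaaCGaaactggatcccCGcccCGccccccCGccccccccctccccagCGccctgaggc
Itpk1: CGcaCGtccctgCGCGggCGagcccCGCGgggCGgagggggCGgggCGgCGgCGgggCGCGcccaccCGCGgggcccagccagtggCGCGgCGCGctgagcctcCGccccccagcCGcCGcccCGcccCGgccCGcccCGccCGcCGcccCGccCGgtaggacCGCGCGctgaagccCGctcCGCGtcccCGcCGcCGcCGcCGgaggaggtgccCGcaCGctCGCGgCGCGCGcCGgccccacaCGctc
The promoter of 4931408C20Rik (chr1:26687461-26687710, minus strand) held 0 CG and lay in a member named for its H3K36me2 after EPZ-6438, where the difference did not pass the test. That of Bricd5 (chr17:24473634-24473883, plus strand) held 1 CG, in a member among the highest for H3K36me3. The promoter of Mad1l1 (chr5:140174919-140175168, minus strand), a spindle checkpoint gene, held 3 CG and lay in the fourth longest member. It precedes an internal start of this gene, whose outermost start lies outside the member, and the RefSeq gene model of Bricd5 likewise begins further upstream than the start used here. That of Ddx58 (chr4:40239826-40240075, minus strand), which encodes a sensor of viral RNA, held 12 CG in a member among the lowest for H3K27me1. The Itpk1 promoter (chr12:102704870-102705119, minus strand), of an inositol phosphate kinase gene, held 51 CG.

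Across members, 737 such promoters of 639 genes lay wholly inside, and they spanned the range from CG-poor to CG-rich. Their median was 8 CG (quartiles 3 and 17), against 10 for all 20085 promoters read, 7 for promoters in H3K27me2 peaks with H3K27me3 and 2 for those in H3K27me2 peaks outside H3K36me2. A count of 15 CG or more was found in 30.9% of promoters in members and 37.8% of all promoters, and 5 or fewer in 40.3% and 36.8%. The compared classes were 9216 H3K27me2 peaks with H3K27me3 (5000 bp or longer, 90% or more in H3K36me2 peaks, 50% or more in H3K27me3 peaks) and 5257 outside H3K36me2 (5000 bp or longer, 0 bp in H3K36me2 peaks). No promoter of chromosome 18 was read. Grouped by CG count, members whose promoters held 5 or fewer, 6 to 14, and 15 or more had H3K36me3 at 2.73 ± 0.10, 3.18 ± 0.14 and 3.32 ± 0.17 times the library mean (SD, n = 2). H3K27me1 in the same order was 1.89 ± 0.14, 1.94 ± 0.22 and 1.94 ± 0.25, a difference smaller than the spread between the replicates.

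The members covered 109.32 Mb, or 4.44% of the autosomes. Their median length was 10000 bp, with quartiles of 7000 and 15500 bp and a range from 5000 to 161000 bp. Every autosome held some, from 232 on chromosome 19 to 651 on chromosome 1, and their density ran from 2.66 per Mb on chromosome 8 to 4.03 per Mb on chromosome 11. H3K36me2 peaks covered 6950 members (85.1%) completely. The members sat in 6689 different H3K36me2 peaks, and 1058 of these held 2 or more members, so members are not independent of one another. Counted once for each member, the median length of these H3K36me2 peaks was 23500 bp. The nearest H3K27me3 peak was a median of 27500 bp away, and 2013 members (24.6%) had one within 10 kb.

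At the edges of the rule, 464 members were exactly 5000 bp long and 92 had exactly 90% of their bases in H3K36me2 peaks. Just outside, 402 peaks of 4500 bp met the rest of the rule, as did 539 peaks with 85% to under 90%. A member at 90% (chr1:59867501-59872500), inside the BMP receptor gene Bmpr2, had H3K36me2 at 1.33 and 1.08 times the library mean in the untreated libraries. Another at 90% without a gene (chr1:13911001-13916000) had 1.68 and 1.68. A peak at 89.9% inside Prickle2 (chr6:92507001-92546500), a planar cell polarity gene, had 2.10 and 2.02. Another at 89.9% (chr3:115715501-115760000) had 2.09 and 2.06. The members at 90% were 5000 bp long and these peaks 39500 and 44500 bp, so they differ in more than cover. By length, a 5000 bp member in Rgs20 (chr1:4974001-4979000) had H3K27me2 at 1.38 and 1.69, and a 4500 bp peak in Sntg1 (chr1:8683501-8688000) had 1.73 and 2.04.

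Levels are read depth over a peak divided by the mean of the same library over the autosomes, so 1 is the library mean. The marks that chose the members stood as the choice implies. Untreated H3K27me2 was 1.87 and 1.66, H3K36me2 was 2.26 and 2.06, and H3K27me3 was 0.537 and 0.494. The peaks with H3K27me3 had H3K36me2 at 2.55 on average, somewhat above the members.

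The 2 marks that the rule did not use, H3K27me1 and H3K36me3, were both above the library mean over members. H3K27me1 was 1.74 and 1.64 in its libraries, a mean of 1.69 ± 0.07 (SD, n = 2). In the same libraries, members exceeded the peaks with H3K27me3 by 1.45 and 1.34 times and the peaks outside H3K36me2 by 1.27 and 1.11 times. H3K36me3 was 2.17 and 2.22, a mean of 2.2 ± 0.04 (SD, n = 2), which was 1.33 and 1.29 times the level over peaks with H3K27me3 and 1.90 and 1.87 times that outside H3K36me2. Against all long H3K27me2 peaks, which include the members, the ratios were smaller, at 1.2 and 1.14 times for H3K27me1 and 1.14 and 1.11 times for H3K36me3. Both marks had a higher mean over members than over either class in each of the libraries, and these ratios were not tested because there are 2 libraries a mark. The plot of untreated levels shows the 5 marks in each library.

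**Figure D1:**
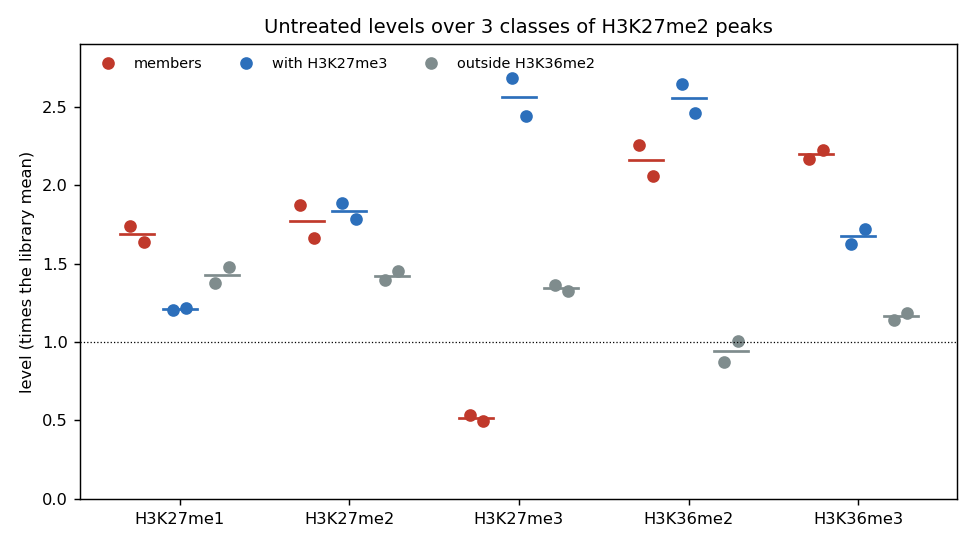
Level of each mark in untreated cells (times the library's autosomal mean, vertical axis) over members, over H3K27me2 peaks with H3K27me3 and over H3K27me2 peaks outside H3K36me2. Points are the 2 replicate libraries, short lines their mean and the dotted line the library mean. H3K27me1 and H3K36me3, which did not choose the members, were 1.69 and 2.2 over members on average.

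The H3K36me3 level was unevenly spread among members, while H3K27me1 was more even. Over single members the median H3K36me3 was 1.49 and 1.44, with the 10th and 90th percentiles at 0.744 and 3.9 in replicate 1 and at 0.681 and 4.16 in replicate 2. The mean over members therefore lay well above the median. H3K27me1 had medians of 1.56 and 1.52, and 90.3% and 94.2% of members were above the library mean, against 74.1% and 70.7% for H3K36me3. Over peaks with H3K27me3, the median H3K36me3 was 1.25 and 1.29, below that of members. There, however, 75.4% and 77.5% of peaks were above the library mean for H3K36me3, and the 10th percentile was 0.830 and 0.848, both more than in members. The higher H3K36me3 of members thus did not hold at the low end.

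Peaks of H3K27me1 overlapped much of the same ground. They covered 64.6% of the bases of members, against 25.2% in peaks with H3K27me3, 41.8% outside H3K36me2 and 20.9% of the autosomes. At least 90% of the length was covered in 3161 members (38.7%), and 1716 members (21.0%) had 0 bp. Members covered by 90% or more had H3K36me3 at 3.13 ± 0.12 (SD, n = 2), and members with 0 bp had 1.03 ± 0.04. This difference in H3K36me3 was far larger than the spread between libraries.

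Across the 8171 members H3K27me1 and H3K36me3 rose together, with a Spearman correlation of 0.608 averaged over the 4 pairs of libraries (0.524 to 0.687). The same value was 0.273 across peaks with H3K27me3 and 0.377 across peaks outside H3K36me2. H3K27me3 in the DMSO libraries ran the other way, at -0.258 with H3K36me3 and -0.266 with H3K27me1 across members. The same values were -0.23 and -0.293 across peaks outside H3K36me2, and 0.287 and -0.047 across peaks with H3K27me3. H3K36me2 and H3K36me3 were correlated at 0.172 across members, against 0.619 in peaks with H3K27me3 and 0.458 outside H3K36me2. These are descriptions across regions that share libraries and, in part, host domains, and whose base composition was not read. The rule used H3K27me3 and H3K36me2, and its part in these correlations was not tested. The spread of H3K36me2 was similar in members and in peaks with H3K27me3. In untreated replicate 1 the 10th and 90th percentiles were 1.49 and 3.09 in members, against 1.68 and 3.29.

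Members lay in gene bodies more than the autosomes do on average. Protein-coding genes covered 59.3% of their bases, against 51.4% in peaks with H3K27me3, 44.3% outside H3K36me2 and 40.0% of the autosomes. Every base was in a protein-coding gene in 3626 members (44.4%), 1179 were partly in such a gene and 3366 (41.2%) touched none. Gene starts were scarcer: 607 of the 7825 members on chromosomes with start annotation (7.76%) held one, against 14.3% of peaks with H3K27me3 and 3.10% outside H3K36me2. Per Mb this was 7.21 starts in members and 8.47 over the same autosomes.

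Members in protein-coding genes and members outside them differed in H3K36me3 more than in H3K27me1. H3K36me3 was 2.51 ± 0.05 in members wholly inside protein-coding genes, 3.04 ± 0.13 in those partly inside and 1.25 ± 0.03 in those outside (SD, n = 2). H3K27me1 was 1.66 ± 0.07, 1.91 ± 0.16 and 1.59 ± 0.01 in the same order. Of the 2836 members wholly inside a gene with a read direction, 18.9%, 25.3%, 24.1%, 19.4% and 12.2% had their centre in the successive 5 equal parts of the gene from start to end. The last part of the gene held the fewest, where peaks with H3K27me3 had 16.5% and peaks outside H3K36me2 had 17.4%. In both of those classes the first part held the fewest, at 15.6% and 15.7%. Only peaks wholly inside a gene were counted, which keeps their centres away from both ends of the gene.

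The members touched 3013 of 20665 protein-coding genes (14.6%), and these were long, with a median of 53.3 kb against 17.5 kb for all. A longer gene is more easily touched by any region, and this was not corrected for. In 934 genes they covered at least as much of the body as they left out. Ptprg, a receptor tyrosine phosphatase gene (chr14:11553440-12242041), held the most, 23 members over 48.7% of its body, with H3K36me3 at 1.35 and 1.34 over the whole gene. Magi1, which encodes a scaffold protein of cell junctions (chr6:93675453-94283929), held 19 members over 57.1% of its body. Cdkal1, a tRNA-modifying enzyme gene (chr13:29191746-29855683), held 17. The cell polarity gene Pard3 (chr8:127063381-127612286), the lysine methyltransferase gene Smyd3 (chr1:178951960-179518053) and the transcription factor gene Tcf4 held 14 each. Over these 6 gene bodies H3K36me3 stayed between 1.10 and 1.87 times the library mean, and H3K27me3 in DMSO between 0.361 and 0.715.

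The listed regulators are given against the 14.6% of all protein-coding genes that a member touched, with no test and no matching for gene length. Of 21 pluripotency genes, 2 (9.52%) carried a member, the nuclear receptor genes Esrrb and Nr5a2, where the member covered 4.36% and 5.94% of the body. Of 10 genes for H3K36 methyltransferases and demethylases, Nsd2, which encodes a writer of H3K36me2, had 1 member over 9.70% of its body, and it was the only one of the 10 (10%) with a member. None was found on 12 genes of PRC2 and H3K27 enzymes or 8 of DNA methylation. The 51 Polycomb targets, such as the Hox genes, also carried none, which is no result, since the rule left out H3K27me3 peaks and H3K27me3 over these bodies had a median of 11.2 in DMSO. As a check of the label, H3K36me3 over the bodies of 10 stem cell genes had a median of 5.37 times the library mean, against 1.81 over 9 genes of other lineages and 1.74 over all genes. Of these stem cell genes, Dppa5a (1.07 and 1.09) and Lin28a (2.17 and 2.56) were the lowest, and Pou5f1, a core pluripotency factor gene, had 6.82 and 7.43.

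Each of the marks was higher at the centre of members than 5 kb to the side, as the profile plot shows. H3K27me1 was 1.62 ± 0.04 at the centre and 1.47 ± 0.10 at 5 kb (SD, n = 2), a difference of 1.11 ± 0.05 times within a library. H3K36me3 was 1.99 ± 0.03 at the centre and 1.72 ± 0.02 at 5 kb and returned to 1.96 at 30 kb. In the DMSO libraries H3K27me3 was 0.632 at the centre, 0.475 at 5 kb, 0.553 at 10 kb and 0.776 at 30 kb. Of these positions the lowest level was at 5 kb, which lies inside the longer members and outside the shorter ones, since the median member was 10000 bp long. Centre-to-side ratios above 1 for most marks were also found in both compared classes; over peaks with H3K27me3 the exception was H3K27me3 itself before the inhibitor, at 0.952 in DMSO.

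**Figure D2:**
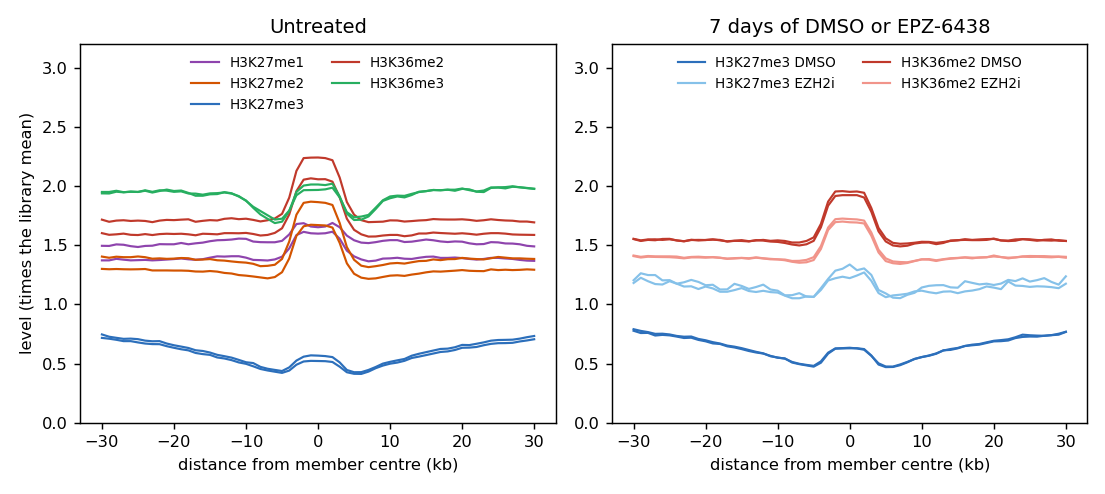
Mean level (times the library mean) in 1 kb windows from 30 kb before to 30 kb after the centres of members, one line per library. Left, untreated libraries; right, quantitative libraries, where H3K27me3 at the centre was 0.632 in DMSO and 1.28 after the EZH2 inhibitor (EZH2i) on each library's own scale.

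After 7 days of EPZ-6438, H3K27me3 over members fell by more than 100-fold on the spike-in scale. Mean scaled reads per 1 kb window over members were 31.1 and 22.9 in DMSO and 0.129 and 0.0897 after the inhibitor. The 2 inhibitor libraries lay far below the 2 DMSO libraries, a 248-fold lower mean (log2 -7.95, with the 4 pairs of libraries between -8.44 and -7.48). The exact two-sided permutation p was 0.33, the smallest that 2 against 2 libraries allow. In limma, fitted over all autosomal H3K27me2 peaks with Benjamini-Hochberg adjustment, 100% of the 43242 peaks tested were lower at adjusted p under 0.05, and 8171 of 8171 members were among them. The members' share was therefore that of all peaks.

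The fall was general, and its size differed between classes. It was 665-fold over peaks with H3K27me3, 564-fold outside H3K36me2 and 509-fold over all long peaks. After the inhibitor the members held 60264 and 102768 window reads in all, and a median of 5 and 9 reads a member, so the level of a single member after treatment carries a large counting error. The scaled levels rest on a factor in the deposited tracks that was taken to be the spike-in factor.

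The reads left in the H3K27me3 libraries after the inhibitor lay differently over the genome, with a larger share over members. No input library was used, so the share of these reads that is background was not measured, and the members and the peaks with H3K27me3 had been chosen as low and high in it. Relative to the library mean, H3K27me3 over members was 0.607 and 0.609 in DMSO and 1.34 and 1.28 after the inhibitor, a rise of 1.11 on the log2 scale. Over peaks with H3K27me3 it was 2.60 and 2.57, then 2.16 and 1.99. Outside H3K36me2 it was 1.37 and 1.32, then 1.26 and 1.30. After treatment the members were above the peaks outside H3K36me2 in replicate 1 and below them in replicate 2, where in DMSO the members had been lowest, as the plot of H3K27me3 by class shows.

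**Figure D3:**
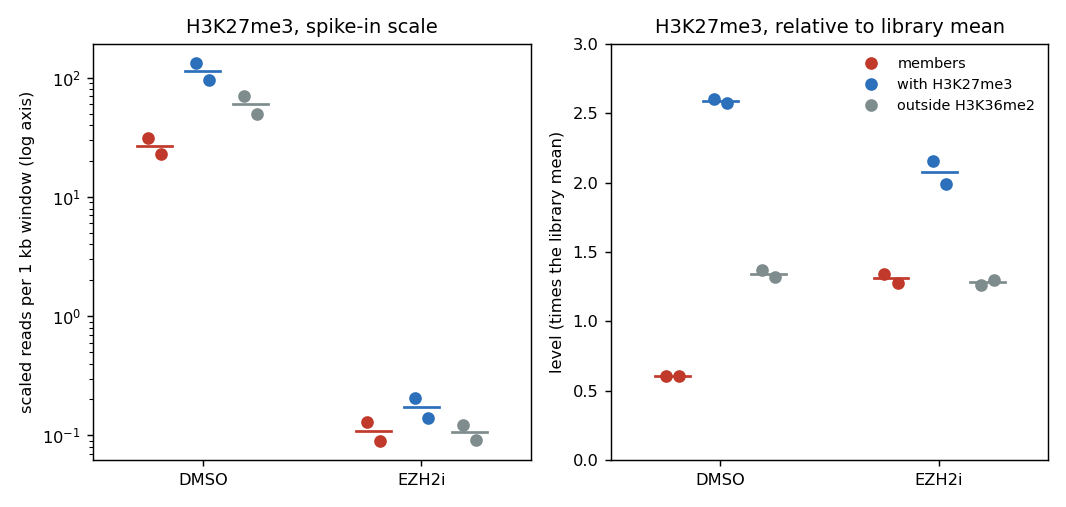
H3K27me3 over members and the compared classes in the 2 DMSO and 2 EZH2i libraries. Left, scaled reads per 1 kb window on a log axis; right, times the library mean; points are libraries and short lines the mean. Members go from 27.02 to 0.109 scaled reads, and from 0.608 to 1.31 times the library mean.

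Within each library the ratio of members to peaks with H3K27me3 does not depend on the spike-in factor. It was 0.233 and 0.237 in DMSO and 0.622 and 0.642 after the inhibitor, a 2.69-fold increase (log2 1.43, with an SD within arms of 0.03). The untreated libraries, which were made without a spike-in, were at 0.20 and 0.202, below both DMSO libraries, a smaller gap than that between DMSO and the inhibitor. The exact two-sided permutation p was 0.33, again the smallest possible. All 6 such ratios tested (3 compared sets, 2 marks) had this p, also after Benjamini-Hochberg adjustment over the 6. The low ratio before treatment follows from how both classes were chosen, and the part of that choice in the increase was not tested. Against peaks outside H3K36me2 the ratio went from 0.444 and 0.462 to 1.06 and 0.985.

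By single peak on the library-relative scale, both inhibitor libraries were above both DMSO libraries at 34.6% of all autosomal H3K27me2 peaks and below them at 28.1%. Among members they were above at 5336 (65.3%) and below at 377 (4.61%). Over peaks with H3K27me3 the shares were 6.93% and 57.5%. Members were chosen as low in this mark and peaks with H3K27me3 as high. The part of that choice in these shares and in the counts below was not tested. When scaled to library totals, limma called 0 members at adjusted p under 0.05, while at an unadjusted p under 0.05 3301 members were higher (40.4%, against 18.1% of all peaks tested) and 67 lower (0.820%, against 11.6%). At these depths limma did not detect changes of several fold in simulated data, so that count of 0 gives no sign that single members kept their level.

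The relative H3K27me3 signal of members declined with H3K36me3 in DMSO and rose with it after the inhibitor. When members were split into 5 equal groups by untreated H3K36me3, mean relative H3K27me3 in DMSO ran 0.679, 0.689, 0.626, 0.550 and 0.547 from the lowest to the highest group. After the inhibitor it ran 0.901, 1.09, 1.18, 1.34 and 1.79. The ratio of the highest to the lowest group was 0.833 and 0.777 in DMSO and 2.08 and 1.88 after treatment, so the libraries of the arms did not overlap. On the spike-in scale the fall was 403-fold in the lowest group and 163-fold in the highest.

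The same ratio was 1.36 ± 0.02 in DMSO and 1.75 ± 0.01 after the inhibitor over peaks with H3K27me3, and 0.612 ± 0.02 and 1.53 ± 0.13 outside H3K36me2 (SD, n = 2). Each class was split into its own 5 groups, so groups of the same rank differ in H3K36me3 between classes. Outside H3K36me2 the DMSO level did not decline steadily. It ran 1.12, 1.41, 1.65, 1.83 and 0.686 from the lowest to the highest group, so the low ratio came from the highest group alone. A higher ratio after treatment was thus found in all 3 classes and was not particular to members. From the lowest to the highest group of members, bases in protein-coding genes rose from 28.5% to 86.9%, bases in H3K27me1 peaks from 34.1% to 89.98% and H3K27me1 from 1.24 ± 0.08 to 2.24 ± 0.23. The part that gene content or H3K27me1 has in the H3K27me3 order was not tested.

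**Figure D4:**
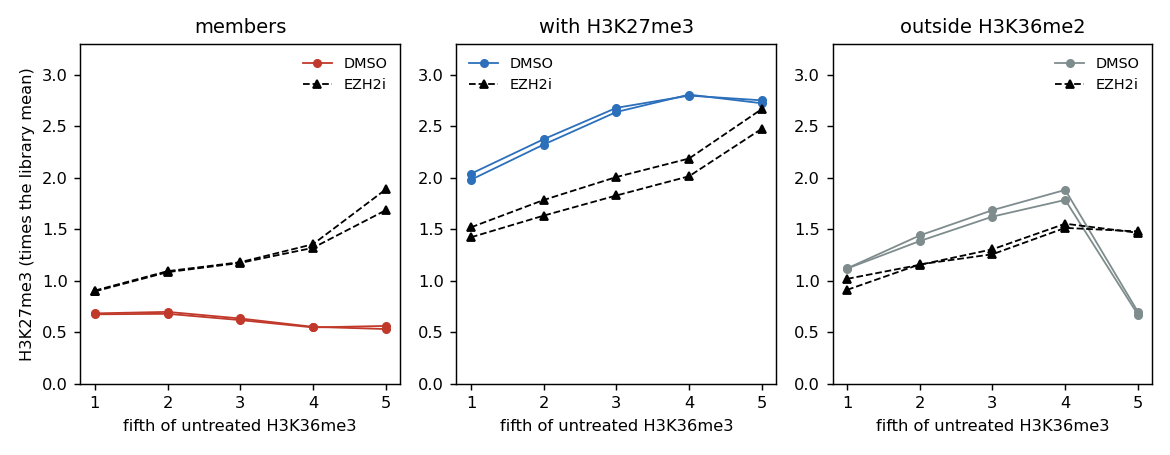
H3K27me3 (times the library mean) by the 5 equal groups of untreated H3K36me3 (1 lowest, 5 highest), for members and both compared classes, one line per library. The groups were cut within each class. In members the lines for DMSO decline from 0.679 to 0.547 on average and those for EZH2i climb from 0.901 to 1.79.

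The members were also divided by H3K27me1 peaks, genes and distance to H3K27me3. Members with H3K27me1 peaks over 90% or more of their length went from 0.533 and 0.519 in DMSO to 1.60 and 1.51 after the inhibitor in relative H3K27me3. Members with 0 bp went from 0.747 and 0.757 to 0.994 and 0.966. Members wholly in protein-coding genes went from 0.531 and 0.530 to 1.33 and 1.24, and members outside them from 0.672 and 0.680 to 1.15 and 1.18. With an H3K27me3 peak within 10 kb the values were 0.740 and 0.737, then 1.37 and 1.30, and without one 0.567 and 0.570, then 1.33 and 1.27. Members near H3K27me3 were thus the higher in each of the 4 libraries, by less after treatment than in DMSO, and no difference between these groups was tested.

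H3K36me2 over members did not separate the arms on the spike-in scale. Mean scaled reads per window were 670 and 438 in DMSO and 732 and 410 after the inhibitor, so the arms overlapped and the replicates differed more than the arms (log2 0.04, pairs from -0.71 to 0.74, exact two-sided permutation p = 1). In limma with Benjamini-Hochberg adjustment, 0% of 43244 peaks and 0 members were called. At an unadjusted p under 0.05 there were 31 peaks, 0 of them members, and limma-voom called 0 peaks with 25 at that unadjusted level. By single peak on this scale, both inhibitor libraries were above both DMSO libraries at 16 members (0.196%, against 2.44% of all autosomal peaks) and below at 4 (0.0490%, against 0.185%).

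Relative to the library mean, H3K36me2 over members was slightly lower after the inhibitor. The values were 1.97 and 1.95 in DMSO and 1.72 and 1.72 after treatment, without overlap (log2 -0.19, exact two-sided permutation p = 0.33, the smallest possible). Peaks with H3K27me3 went from 2.48 and 2.45 to 2.24 and 2.29, and peaks outside H3K36me2 went up from 1.05 and 1.09 to 1.19 and 1.2. Both inhibitor libraries were below both DMSO libraries at 5044 members (61.7%, against 41.8% of all autosomal peaks) and above at 157 (1.92%, against 15.7%). The members were chosen by H3K36me2 peaks in the untreated libraries, where their level was 2.26 and 2.06, above both DMSO libraries. The part of that choice in the lower level and in these shares was not tested. The plot of H3K36me2 by class shows both scales.

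**Figure D5:**
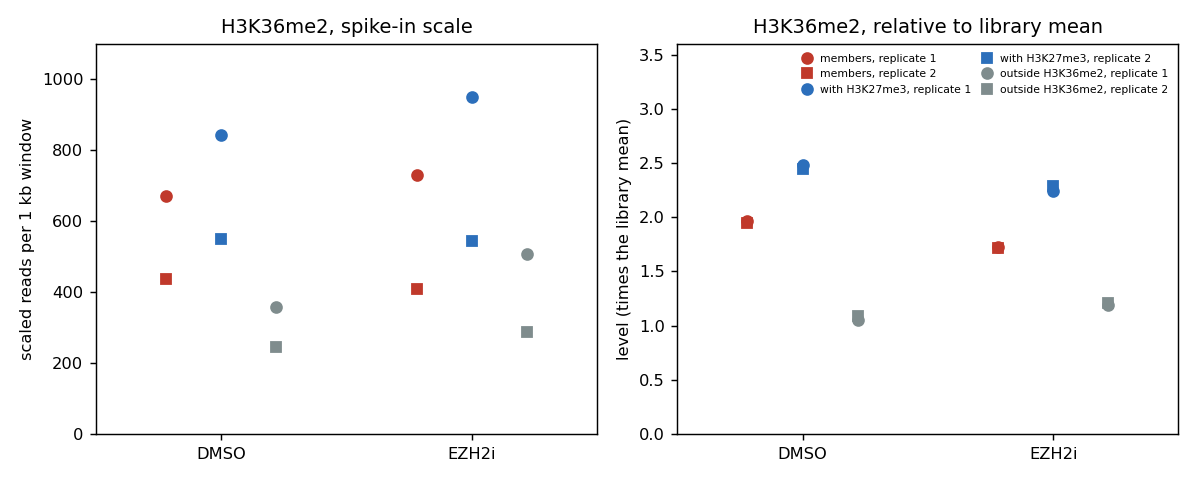
H3K36me2 over members and the compared classes in the quantitative libraries, circles for replicate 1 and squares for replicate 2. Left, scaled reads per 1 kb window, where the replicates of an arm differ more than the arms; right, times the library mean, where members go from 1.96 to 1.72 and peaks outside H3K36me2 from 1.07 to 1.2.

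Inside a library, the H3K36me2 ratio of members to peaks with H3K27me3 was 0.794 and 0.797 in DMSO and 0.770 and 0.751 after the inhibitor (log2 -0.07, SD within arms 0.02, exact two-sided permutation p = 0.33). The ratio to peaks outside H3K36me2 was 1.87 and 1.79, then 1.45 and 1.43 (log2 -0.35). Both classes of the last ratio were chosen by H3K36me2 peaks in the untreated libraries, where it was 2.58 and 2.04. It was therefore already lower in DMSO, and no change in it is read as a result. With library totals in limma, 0 members were called at adjusted p under 0.05. At an unadjusted p under 0.05, 15 were higher (0.184%, against 6.31% of all peaks tested) and 2276 lower (27.9%, against 16.9%). The part of the choice by H3K36me2 in these shares was not tested either.

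The longest members ran through gene bodies. The longest, of 161000 bp, lay inside Gli2 (chr1:118877001-119038000), a transcription factor gene of Hedgehog signalling, and its H3K36me3 was 4.70 and 5.13. It was followed by members over Pip5k1b (chr19:24291001-24451500), a lipid kinase gene, Eefsec (chr6:88288501-88444000), the selenocysteine elongation factor gene, Mad1l1 (chr5:140159501-140296500) and Fndc3b (chr3:27407001-27539500). In Mad1l1, relative H3K27me3 was 0.647 and 0.749 in DMSO and 3.13 and 2.72 after the inhibitor. On this library-relative scale both inhibitor libraries were above both DMSO libraries in all 5, as in 65.3% of members and 34.6% of all autosomal peaks. On the spike-in scale all 5 fell, as all members did, and the Gli2 member went from 26.1 and 15.8 scaled reads per window to 0.219 and 0.121. H3K27me1 peaks covered from 57.3% of the member in Pip5k1b to 100% of that in Mad1l1.

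The 2 members highest in H3K36me3 both lay in Dnah8, an axonemal dynein gene, at 13.2 and 13.3 (chr17:30653501-30665500) and 12.1 and 12.5 (chr17:30629501-30651000). A member over Mlst8, a subunit gene of the mTOR complexes, and its neighbours Pgp and Bricd5 (chr17:24471001-24478000) had 10.4 and 11.4, and one over the nuclear receptor gene Nr4a1 (chr15:101269501-101275500) had 9.45 and 11.3. H3K27me1 peaks covered 100% of all 4. At the other end were a member in the transporter gene Abcb5 (chr12:118900001-118907500), with H3K36me3 at 0.267 and 0.272, and one in the mitochondrial peptidase gene Immp2l (chr12:41677001-41682500), with 0.325 and 0.291. A member on chromosome 4 (chr4:88088501-88093500) had 0.449 and 0.127, one on chromosome 5 (chr5:44270001-44276500) had 0.319 and 0.311, and neither overlapped a gene. In the first Dnah8 member relative H3K27me3 went from 0.847 and 0.662 to 4.47 and 2.82, and in the Abcb5 member from 0.478 and 0.291 to 0.316 and 0.353.

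H3K27me1 was highest in a member over the zinc finger gene Zfp992 and a vomeronasal receptor pseudogene (chr4:146452501-146461000), at 8.98 and 8.70. A member of chromosome 18 without a gene (chr18:3113001-3121000) had 9.80 and 7.09. Another without a gene on chromosome 4 (chr4:147396501-147406000) had 7.43 and 7.59, and one in Zfp936 (chr7:43170501-43175500) had 7.15 and 6.11. H3K36me2 was 5.24 and 4.69 in the Zfp992 member, 4.74 and 4.57 in chr4:147396501-147406000 and 4.37 and 4.17 in the Zfp936 member. In the chromosome 18 member it was 1.95 and 2.54. Zinc finger genes of this kind have near-identical copies, so reads there may be shared between copies. Whether reads are shared in the members without a gene was not tested. H3K27me1 was lowest, at 0.588 and 0.609, in a member shared by Gtf2f2, a subunit gene of the general factor TFIIF, and Kctd4 (chr14:75957501-75964500). Members at Ddx58 (chr4:40234001-40244500), in the exchange factor gene Dock4 (chr12:40480501-40487500) and in the ceramide synthase gene Cers6 (chr2:68866001-68875000) followed, between 0.593 and 0.710.

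For H3K36me2 on the spike-in scale, 8162 members had at least 100 reads in all 4 libraries. Of these, 16 were higher and 4 lower in all 4 pairs of libraries, and none of them passed limma's adjusted threshold. These were 0.196% and 0.0490% of all members, below the 2.44% and 0.185% of all autosomal peaks, so the members named next are a description and not calls. Among the 16, the largest difference was at 4931408C20Rik (chr1:26682501-26688500), from 533 and 391 to 1129 and 620 (log2 0.92, limma 0.87 with SE 0.54). It lay in the lncRNA gene Gm31136 as well and had H3K27me1 at 4.09 and 4.02. Members without a gene on chromosome 5 (chr5:90392501-90398500) and chromosome 16 (chr16:7777501-7784000) came next, from 508 and 346 to 778 and 518 and from 401 and 343 to 614 and 426.

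Among the 4 members lower in all pairs, the 3 with the largest difference in H3K36me2 lay in protein-coding genes. In Cops7a, a subunit gene of the COP9 signalosome (chr6:124959001-124964000), H3K36me2 went from 543 and 491 to 463 and 425 (log2 -0.22). In the phosphatidylserine synthase gene Ptdss2 (chr7:141151001-141157500) it went from 694 and 684 to 675 and 523, and in the sugar phosphate mutase gene Pgm2 (chr5:64109501-64116500) from 505 and 543 to 484 and 483.

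Members with the most H3K27me3 in DMSO were in Nav2, a neuron navigator gene (chr7:49339501-49347000), in the actin-binding gene Ablim1 (chr19:57076001-57086500) and over Notum (chr11:120654001-120660500), which encodes a secreted inhibitor of Wnt proteins. At Notum, scaled H3K27me3 reads were 109 and 92.4 in DMSO and 0.173 and 0.255 after the inhibitor (limma log2 -6.38, SE 0.26). The lowest were in the ubiquitin ligase genes Fbxo11 (chr17:88022001-88035000) and Rnf13 (chr3:57740501-57749000) and in Sh3gl2 (chr4:85271001-85276500), an endophilin gene. At Fbxo11 the values were 5.49 and 4.15, then 0.168 and 0.0305 (limma log2 -2.40, SE 0.26). The limma values are on the log2(scaled reads + 1) scale. They understate the fall at both Notum and Fbxo11, since levels after the inhibitor lay below 1. Over members the median limma value was -4.51, against -6.95 with a pseudocount of 0.1.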

How the data were processed

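The deposited tracks hold log2 values in 1 kb windows every 500 bp, 1 track per library. Reads were trimmed with Trim Galore 0.4.2 and aligned with Bowtie2 2.2.6.2, and SICER, mm10 and dm3 are also named, per the submitters' processing notes, which give no roles; the use of each beyond what its name says is not given in the sources used here. After undoing the log2(x + 1), all window values of a track were multiples of 1 step within a tolerance of 0.02. The step gives RPM (reads per 1000000 mapped) in untreated libraries, and in quantitative ones a number read here as a spike-in factor set by the authors. Peak lists were the authors', and their deposited score was not used. No input library was used and no background was subtracted.

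Recovered reads were averaged over windows with at least 500 bp in a peak. Estimated depth was 17.3 to 84.4 M reads (units of 1000000), except 16.3 for the first H3K27me3 DMSO library and 0.750 and 1.34 for H3K27me3 after the inhibitor. The log2(mean scaled reads + 1) was tested with limma 3.58.1 (R 4.3.3) over all autosomal H3K27me2 peaks with at least 10 reads in the 4 libraries of a mark. Limma was tested on simulated data in which the 4 libraries of a mark were scaled to the same total. Changes of several fold were recovered for H3K36me2 but not for H3K27me3, where changes many times larger were needed. In the simulation of these larger changes a sizeable number of unchanged peaks was called too. The larger changes were simulated after the smaller ones had not been recovered. The real H3K36me2 replicates differed in scaled total, so the recovery for H3K36me2 does not carry over to its spike-in fit. Class means were compared by exact permutation.

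The members, lists and tests were chosen with earlier results of these data known. The divisions of members by gene, H3K27me1, H3K36me3, distance and promoter CG count were chosen after values were seen. Members were named by rule: the 5 longest, the 4 highest and 4 lowest for H3K36me3 and for H3K27me1, the 3 largest H3K36me2 rises and falls with one direction in all pairs, and the 3 highest and 3 lowest for DMSO H3K27me3. Gene bodies and starts come from RefSeq (GRCm38.p6).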

Additional observations from a re-analysis of the deposited data

How the results depend on the processing

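Of the alternatives, 71 gave the same direction and side of the threshold, or a value within the spread of the replicates. Relative to the library mean, H3K27me3 over members was 1.11 (log2) higher after the inhibitor, not lower, and H3K36me2 was -0.19. With library totals limma called 0 members for H3K27me3, also with a pseudocount of 0.1 (0) and with a replicate block (0), the last pair chosen after seeing the data. Leaving out 1 library, H3K27me3 ran from -8.24 to -7.71, and H3K36me2 from -0.43 to 0.40, turning negative without DMSO replicate 2 (-0.23) and without EZH2i replicate 1 (-0.43). With a replicate block, limma called 47 members for H3K36me2: 45 higher (0.551%, against 9.8% of all peaks tested) and 2 lower (0.0245%, against 0.0856%). With library totals as well it called 2626: 19 higher (0.233%, against 6.88%) and 2607 lower (31.9%, against 19.2%). Across peaks, the difference between the 2 DMSO replicates correlated with that between the 2 EZH2i replicates at 0.547 for H3K36me2 and 0.030 for H3K27me3. This rests on 2 pairs and the labels give no pairing, so the block was not used in the report. The H3K27me3 class ratio moved from 1.43 to 1.46 with members of 10000 bp or longer (4127) and to 1.52 without H3K27me3 within 10 kb (6158). The H3K36me2 ratio was -0.088 as a median over peaks. H3K36me3 over members was 2.12 with complete H3K36me2 cover (6950), 2.34 at 10000 bp or longer, 2.26 without H3K27me3 within 10 kb and 1.47 as a median over peaks. H3K27me1 was 1.54 as a median over peaks. The cause of these shifts was not tested. Depth limits H3K27me3 after the inhibitor, at a median of 5 and 9 reads a member.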

Other observations

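Chromosome X was outside the rule. The deposited list held 20 H3K27me2 peaks there, of which 7 met the rest of the rule, against 320 peaks of H3K27me3, 311 of H3K27me1 and 195 of H3K36me2. Mean read depth on chromosome X was 40.0% ± 0.05 of the autosomal mean for untreated H3K27me1 (SD, n = 2). H3K27me2 was at 31.97% ± 0.9 and H3K27me3 at 20.0% ± 1.9, while H3K36me2 and H3K36me3 were at 23.0% ± 1.3 and 22.6% ± 2.0. After the inhibitor H3K27me3 on chromosome X was 25.2% ± 1.4 of the autosomal mean, against 21.7% ± 0.3 in DMSO. No difference on chromosome X was tested.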
